A study of Mus musculus with 4 samples.

Results

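Complement genes of stromal cells and macrophages were followed through single-cell RNA libraries of mouse white adipose tissue (AT). The 9 members were C3, C4b, C1ra, C1s1, Cfb, Serping1, C1qa, C1qb and C1qc. They were taken by symbol, out of 32290 features in the tables. The study removed Tert, the catalytic subunit of telomerase, from endothelial cells and profiled fat after a high-fat diet. There were 4 libraries, 1 for each of 4 groups, named WT SC, KO SC, WT IP and KO IP after genotype and depot. WT mice were Tie2e-cre; TERT+/+; mTmG and KO mice were Tie2e-cre; TERTfl/fl; mTmG, so that both genotypes carried the recombinase and the reporter. SC is subcutaneous fat and IP is visceral intraperitoneal fat. All mice were male, 7 months old and on a high-fat diet for 5 months, and the number of mice behind each library is not stated. The recombinase is driven by a promoter of the receptor gene Tie2, which the study describes as specific to endothelial cells. Its activity in stromal cells and macrophages was not tested. The labels call the material mixed primary cells.

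Complement is a cascade of plasma and tissue proteins that tags surfaces for uptake and recruits leukocytes. In the classical pathway the recognition protein C1q, assembled from A, B and C chains, activates the proteases C1r and C1s, which cleave C4 and C2, and the resulting convertase cleaves C3. Factor B, the product of Cfb, forms the convertase of the alternative pathway, and C1 inhibitor, the product of Serping1, inactivates C1r and C1s. Most plasma complement comes from the liver, whereas fibroblasts and macrophages are known local sources, macrophages above all of C1q.

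The members lie in several neighbourhoods of GRCm38, the assembly also called mm10. The 3 C1q chain genes sit side by side on the minus strand of chromosome 4, with C1qa at chr4:136895917-136898803, C1qc at chr4:136889804-136893065 and C1qb at chr4:136880129-136886187, and the gaps between them are 2851 and 3616 bases. C1ra (chr6:124512405-124523443, plus strand) and C1s1 (chr6:124530345-124542359, minus strand) lie 6901 bases apart. C4b (chr17:34728380-34743882) and Cfb (chr17:34856374-34862518) are both on the minus strand of chromosome 17, where 85 bases separate Cfb from C2. C3 (chr17:57203970-57228136, minus strand) and Serping1 (chr2:84765387-84775444, minus strand) stand apart from these groups. All 9 are annotated as protein-coding.

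Sequences just before the annotated starts are shown for genes of both patterns described below, those of stromal cells and those of macrophages, since members of each pattern moved together across cell classes. They come from the RefSeq promoter table of GRCm38.p6 and are read 5′ to 3′ on the gene's strand. C1qc is shown only up to its annotated exon, which takes up the last 151 bases of its window. The table matched 5 of the 9 members: C3, C1ra, C1s1, C1qb and C1qc. No sequence is shown for C1ra, whose window holds 216 bases of annotated exon. Capitals mark matches, on either strand, to the C/EBP motif TTGCNNAA or the PU.1 motif GAGGAAGT.
C3, chr17:57228137-57228386, minus strand: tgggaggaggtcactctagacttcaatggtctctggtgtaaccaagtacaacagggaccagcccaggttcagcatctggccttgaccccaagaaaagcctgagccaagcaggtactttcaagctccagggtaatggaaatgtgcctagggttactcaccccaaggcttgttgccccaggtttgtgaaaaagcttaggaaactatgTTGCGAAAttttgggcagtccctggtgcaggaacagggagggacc
C1s1, chr6:124542360-124542609, minus strand: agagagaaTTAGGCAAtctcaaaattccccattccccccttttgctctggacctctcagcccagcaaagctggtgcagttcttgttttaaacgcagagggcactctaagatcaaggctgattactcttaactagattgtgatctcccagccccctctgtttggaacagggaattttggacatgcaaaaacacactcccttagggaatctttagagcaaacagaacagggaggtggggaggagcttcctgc
C1qb, chr4:136886201-136886450, minus strand: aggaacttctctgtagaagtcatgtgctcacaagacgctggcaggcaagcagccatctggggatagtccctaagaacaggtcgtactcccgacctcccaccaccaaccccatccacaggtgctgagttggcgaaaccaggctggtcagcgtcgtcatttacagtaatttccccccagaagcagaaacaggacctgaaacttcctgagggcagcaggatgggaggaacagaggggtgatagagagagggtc
C1qc, chr4:136893066-136893164, minus strand: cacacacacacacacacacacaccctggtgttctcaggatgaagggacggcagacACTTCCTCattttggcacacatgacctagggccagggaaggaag

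The C/EBP motif stood 45 bases before the C3 start and, on the opposite strand, 242 bases before that of C1s1, and 9.56% of the 32851 promoters in the table held it. The PU.1 motif stood 195 bases before the RefSeq start of C1qc, on the opposite strand, and 2.44% of promoters held it. The interferon-stimulated response element, the gamma-activated site TTCNNNGAA, the NF-kB motif, the AP-1 motif TGANTCA and the TATA motif TATAAA had no match in the first listed window of any of the 5 genes, and were in 2.98%, 7.02%, 0.356%, 6.75% and 12.4% of all promoters. A match describes the letters in the window and not a site in use.

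Across the 4 libraries 4927 barcodes were deposited, with 10015201 to 15533961 UMIs (unique molecular identifiers, each counted molecule) per library, and 4027 cells were kept. SC gave 969 WT and 1868 KO cells, and IP gave 673 WT and 517 KO cells. Cells were put into classes by markers that include no member. Each cell was given the class of which the largest part of the marker list was detected, with at least 3 markers, and cells with markers of more than 1 lineage were set aside. The stromal-like class, called stromal cells here, was marked by Pdgfra, Dcn, Dpt, collagens and others, and held 103, 123, 282 and 210 cells in WT SC, KO SC, WT IP and KO IP. All 9 stromal markers were detected in the stromal cells of each library, from 249.02 CPM (the UMIs of a gene in a class, scaled to the same class total of 1000000) for Pdgfra in WT SC to 13107 for Dcn in KO IP. The macrophage-like class held 83 cells in WT IP and 28 in KO IP, with all 8 of its markers detected in both, but 3 cells in each SC library. Endothelial cells, the target of the deletion, numbered 2, 2, 5 and 0, and Tert had 3, 2, 8 and 9 UMIs over all kept cells of WT SC, KO SC, WT IP and KO IP, so that the deletion could not be checked at this depth, and a read from the 3′ end need not report a deletion elsewhere in the gene.

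KO SC and WT IP shared 92 kept cell barcodes, whereas every other pair of libraries shared 0. The copies in KO SC were shallow, with a median of 605.5 UMIs against 35536 in WT IP, and 76 of them were stromal. They were left out of KO SC, which lowered its stromal cells from 199 to 123, and the values with those barcodes counted in both libraries or left out of both are given where they moved a result. Red-cell markers were uneven as well: haemoglobin and Alas2 summed to 8381 CPM in the stromal cells of WT SC against 37.6 to 335 in the other 3 libraries, and to 10106 CPM in WT IP macrophages against 252 in KO IP. Their part in any result was not tested.

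The members fell into 2 patterns. C3, C4b, C1ra, C1s1, Cfb and Serping1 were transcripts of stromal cells, and the 3 C1q chains were transcripts of macrophages. Stromal cells held 89.0% of all Serping1 UMIs, 87.2% of C4b, 83.5% of C1ra, 80.2% of C1s1, 76.7% of C3 and 52.8% of Cfb. Macrophages, with 117 of the 4027 cells, held 95.6% of C1qa, 95.7% of C1qb and 96.2% of C1qc UMIs.

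C3 encodes the protein at which all complement pathways meet. Its level in stromal cells in SC was 1570 CPM for WT (95% exact Poisson interval 1513 to 1629) and 1383 for KO (1326 to 1442), and in IP 2918 for WT (2876 to 2962) and 3791 for KO (3732 to 3850). Both IP libraries stood above both SC libraries. At least 1 C3 UMI was found in 81.6%, 87.8%, 90.4% and 90.5% of those cells, in the same order of libraries.

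C4b encodes complement C4, which is cleaved next after C1s. Its level in SC was 278 CPM for WT (255 to 304) and 170 for KO (151 to 192), and in IP 555 for WT (537 to 574) and 487 for KO (467 to 509). The IP libraries were again the higher ones. The gene was unevenly spread over cells: the tenth of stromal cells with the most C4b held 62.6% of its UMIs for WT and 62.9% for KO in SC, and 40.9% for WT and 50.9% for KO in IP.

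C1ra and C1s1 encode the proteases of the C1 complex. C1ra stood at 361 CPM for WT and 265 for KO in SC, and at 411 for WT and 377 for KO in IP. C1s1 stood at 530, 474, 713 and 847 CPM in the same order. KO SC was the lowest library for both genes. Serping1, their inhibitor, was the most even member, with 2126, 1934, 2349 and 2187 CPM, and 94.3% to 97.6% of stromal cells had a UMI of it. Cfb stood at 209, 156, 218 and 317 CPM, with KO IP the highest.

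C1qa, C1qb and C1qc had 0 UMIs in the stromal cells of both SC libraries, which allows up to 1.66 CPM in WT SC and 1.88 in KO SC, and in IP at most 4 UMIs each in WT and 1 in KO. In macrophages of WT IP they stood at 743 (699 to 789), 1431 (1369 to 1494) and 481 CPM (446 to 518). In macrophages of KO IP they stood at 937 (843 to 1039), 958 (863 to 1060) and 595 CPM (521 to 677). The 3 KO SC macrophages held 25, 56 and 15 UMIs of the chains, all in 1 cell, and the 3 WT SC macrophages held 1, 0 and 1.

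RNA set free from broken cells can put UMIs of a gene into cells that do not express it, so lymphocytes served as the background. Over 2627 T and B cells with 21011290 UMIs there were 20 UMIs of C3, 3 of C4b, 3 of C1ra, 11 of C1s1, 5 of Cfb, 25 of Serping1, 0 of C1qa, 1 of C1qb and 1 of C1qc. The highest value of any member in T or B cells of a library was 6.19 CPM, for C3 in T cells of KO IP, where 5.69% of 123 cells had a UMI. T cells had a median depth of 7884.5 to 9260 UMIs and stromal cells 13284 to 22892. C3 in IP macrophages, with 30.1 CPM in WT (21.8 to 40.6) and 54.1 in KO (33.5 to 82.7), exceeded that value.

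**Figure D1:**
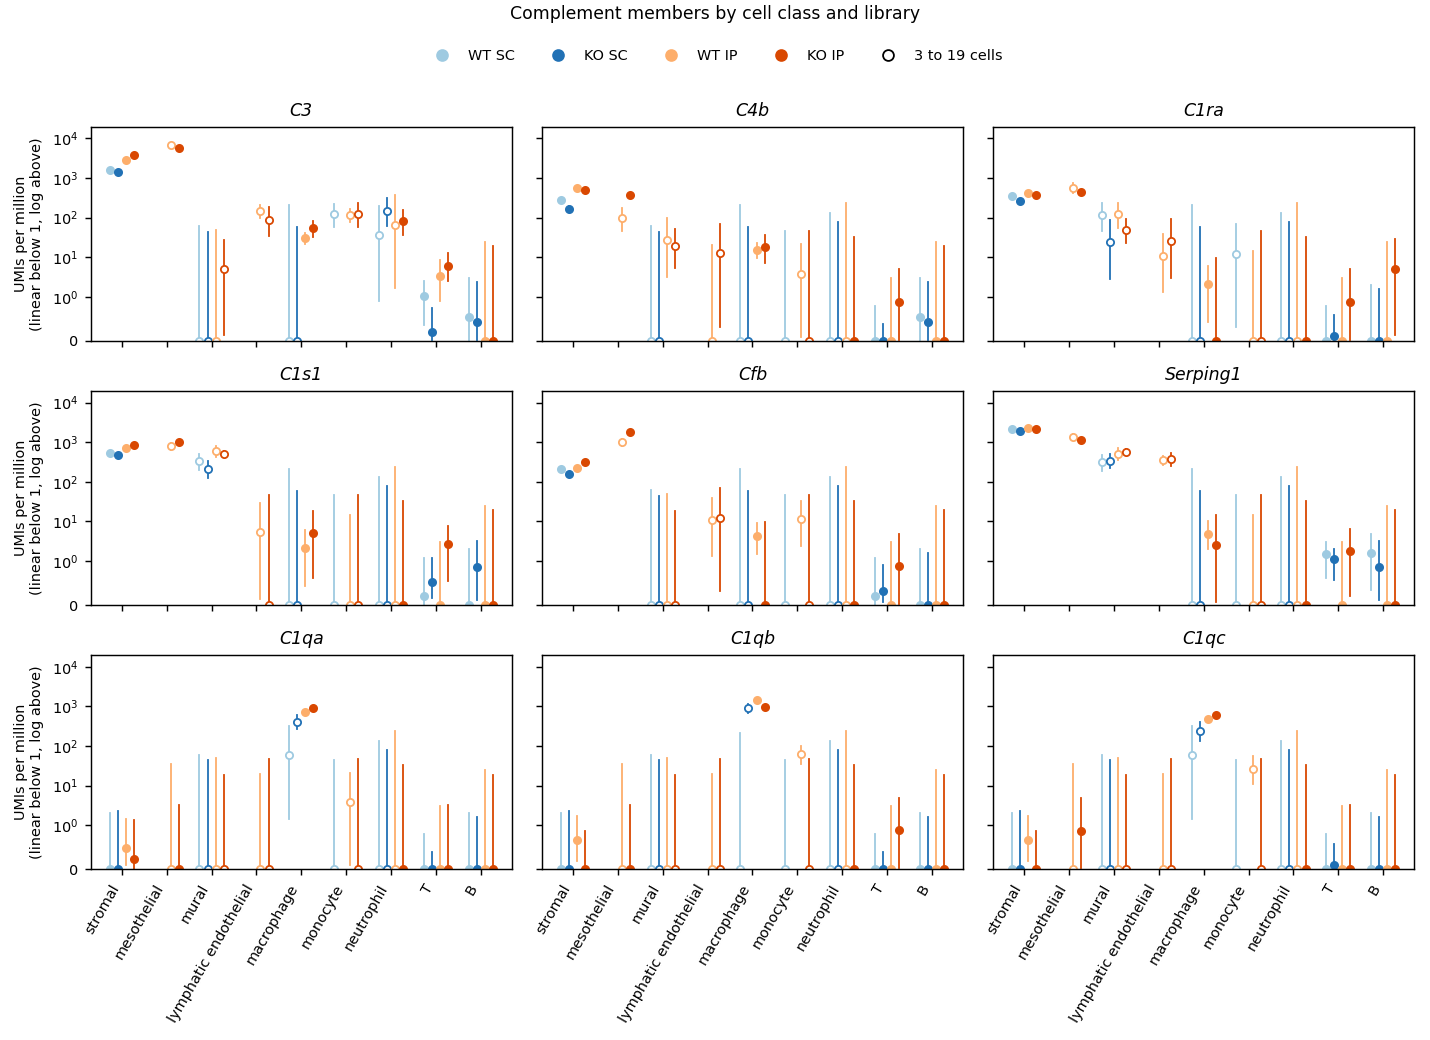
Each panel plots 1 member in CPM of the class (linear below 1, log above) by cell class, with 1 point per library, its 95% exact Poisson interval, and open points for 3 to 19 cells. The upper 6 members sit above 100 CPM in stromal cells and in mesothelial cells of KO IP, and the 3 C1q chains sit above 100 CPM in IP macrophages (up to 1431 CPM) and near 0 in stromal cells.

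Smaller classes added to both patterns. Mural cells, the contractile cells around vessels, held C1s1 at 214 to 591 CPM and Serping1 at 314 to 565 CPM over the 4 libraries, from 4 to 10 cells each, with 0 C3 UMIs in 3 libraries and 1 in KO IP. Lymphatic endothelial cells of IP held Serping1 at 351 and 378 CPM in 12 and 4 cells. C3 was found in monocytes at 116 to 125 CPM in the 3 libraries that had any, from 6 to 17 cells each. Neutrophils held C3 at 149.7 CPM in KO SC (10 cells) and at 80.1 in KO IP (22 cells), with 0 UMIs of the other 8 members in KO IP. WT IP monocytes held C1qb at 61.7 CPM, from 16 UMIs in 17 cells.

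Mesothelial cells, the lining of the visceral cavity, were another source of the stromal members. They numbered 23 in KO IP, 3 in WT IP and 0 in both SC libraries, and all 6 mesothelial markers were present in KO IP, from 309 CPM for Lrrn4 to 975 for Upk3b. In KO IP the Cfb level was 1773 CPM in mesothelial cells and 317 in stromal cells, a log2 ratio of 2.48 (exact conditional binomial interval 2.38 to 2.58), the largest gap among the members. C3 was at 5738 CPM against 3791, a log2 ratio of 0.60 (0.56 to 0.64). Serping1 was lower in mesothelial cells, at 1158 against 2187 CPM, a log2 ratio of -0.92 (-1.001 to -0.83). C1s1, C1ra and C4b had log2 ratios of 0.28, 0.20 and -0.35. Thus 1 member, Cfb, was at least 2-fold higher, where 11.5% of 11337 genes were, and no member was 2-fold lower, where 17.2% were. The 26 mesothelial cells of both IP libraries held 34.4% of all Cfb UMIs.

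The marker rule for the classes did not use the members, so how far each member set its class apart could be counted. A gene was called particular in level to a class when it was at least 4-fold above every other class with 20 cells, in each library holding the class. The 3 C1q chains met this for macrophages, as 1.09% of 7250 genes did. No member met it for stromal cells, as 2.33% of 12868 genes did, and in KO IP none of the 6 stromal members was 4-fold higher in stromal than in mesothelial cells, with Cfb, C3, C1s1 and C1ra higher in the latter. With the mesothelial class set aside all 6 met it, against 6.61% of genes. Classes under 20 cells, with mural cells, monocytes and dendritic cells among them, were not compared. The C1q result therefore does not set macrophages apart from monocytes or dendritic cells. The C1s1 levels given above for mural cells were less than 4-fold below those of stromal cells.

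The stromal members followed each other across classes. Over 17 sums of a class in a library, each with at least 20 cells, Pearson's r of log2(CPM + 10) between C3 and the other 5 stromal members was 0.95 to 0.97. C1qa followed C1qc (r = 0.9999) and C1qb (r = 0.997), and C3 against C1qa gave -0.06. The genes most like C3 among 10602 candidates were Mgst1, Rhou, Pdpn, Ccdc80 and Igfbp7 (r = 0.98 for each). Those most like C4b were Fzd1, Ak1, Meis1, Tcea3 and Gxylt2 (0.988 to 0.995), and those most like C1qa were Clec10a, Clec4a1, Mgl2, Clec4b1 and Ptpro (0.993 to 0.99998). These points come from 4 libraries and differ mainly by class, so the values describe a shared class pattern. Macrophages entered as the WT IP and KO IP sums only, and the C1qa values rest on those points.

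The next question was whether the 2 depots differed. Within WT, C3 was higher in IP than in SC stromal cells by a log2 ratio of 0.89 (0.84 to 0.95) and C4b by 0.995 (0.86 to 1.13), a 1.99-fold difference that fell just short of 2-fold. C1s1 was higher by 0.43 (0.33 to 0.53), and C1ra, Serping1 and Cfb by 0.18, 0.14 and 0.06. The interval of Cfb (-0.10 to 0.23) included 0. No member of the 6 compared reached 2-fold in either direction in WT, where 9.08% of 11708 genes were at least 2-fold higher and 6.36% lower. The median over all genes compared was 0.08. The count became 2 of 6 higher, C3 and C4b, when each cell had equal weight, when each cell was thinned to 2000 UMIs and when shared barcodes were left out of both libraries.

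Within KO the same ratios were 1.45 for C3 (1.39 to 1.52), 1.52 for C4b (1.33 to 1.71) and 1.02 for Cfb (0.83 to 1.23). C1s1, C1ra and Serping1 were at 0.83, 0.51 and 0.18. Thus 3 of 6 members were at least 2-fold higher in IP of KO, where 10.7% of 11247 genes were, and 0 were 2-fold lower, where 5.91% were. The count fell to 1, C3, when cells were thinned to 2000 UMIs, with C4b at 0.78 and Cfb at 0.67. The Cfb call also ended with equal weight for each cell, at 0.62, and with median-of-ratios scaling, at 0.93. Without stromal cells with any mesothelial marker UMI, Wt1 included, it ended at 0.69. These are differences between single libraries, with no replicate behind them, and the intervals cover counting error only. The median over all genes compared was 0.10.

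The stromal cells of the depots were not the same mixture. When all cells were clustered, 219 of 282 stromal cells of WT IP and 155 of 210 of KO IP lay in a cluster led by genes that included Mgat4e and Ly6h, with Tcf21 and Agt among its 10 leading genes. In SC, 43 of 103 WT and 64 of 123 KO cells lay in a cluster led by Mrgprg, Rorb and Gabra2, which held 0 stromal cells of IP. Another cluster held 22, 26, 45 and 38 cells of WT SC, KO SC, WT IP and KO IP, and was the only stromal cluster with at least 20 cells in every library. Its leading genes included Krt5 and Acta1, which are known from keratinocytes and muscle.

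In that shared cluster C3 was again higher in IP, at 1716 (1503 to 1951) and 2119 CPM (1832 to 2438) in WT and KO, against 1016 (875 to 1172) and 1221 CPM (1077 to 1380) in SC. C4b was not higher in IP there: it stood at 592 (486 to 714) and 563 CPM (467 to 674) in WT SC and KO SC, and at 433 (329 to 558) and 380 CPM (265 to 529) in WT IP and KO IP. The C4b intervals of the depots overlapped within each genotype. C4b stood at 209 and 116 CPM in the WT and KO cells of the main SC cluster and at 566 and 503 CPM in those of the main IP cluster, which are different clusters and give no depot order of their own. In the shared cluster Cfb stood at 369 and 237 CPM in WT SC and KO SC, and at 147 and 576 CPM in WT IP and KO IP.

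The comparison of genotypes asked whether loss of Tert in endothelial cells went with a different complement level in neighbouring stromal cells. In SC all 6 stromal members were lower in KO by small amounts. The log2 ratio of KO to WT was -0.71 for C4b (-0.93 to -0.49), -0.45 for C1ra (-0.63 to -0.27), -0.42 for Cfb (-0.66 to -0.19), -0.18 for C3 (-0.26 to -0.10), -0.16 for C1s1 (-0.30 to -0.02) and -0.14 for Serping1 (-0.21 to -0.07). None of the 6 reached 2-fold, where 2.93% of 9743 genes were at least 2-fold higher and 2.80% lower, and the median over all genes was 0.01.

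Not all of these directions held when cells were weighed differently. C3 turned to 0.14 with equal weight for each cell and to 0.03 after thinning to 2000 UMIs. C4b moved to -0.20 with equal weights and to 0.73 after thinning, at which point 20% of WT and 22.3% of KO stromal cells still had a C4b UMI. Before thinning those shares were 55.3% (45.2 to 65.1, exact Clopper-Pearson) and 37.4% (28.8 to 46.6), with 19850 UMIs in the median WT cell and 13284 in the median KO cell. C1ra, C1s1, Cfb and Serping1 stayed below 0 in both settings.

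In IP the members divided. C3 was higher in KO by a log2 ratio of 0.38 (0.35 to 0.41), Cfb by 0.54 (0.43 to 0.65) and C1s1 by 0.25 (0.18 to 0.31). C4b was lower, at -0.19 (-0.27 to -0.11), and C1ra and Serping1 stood at -0.12 (-0.22 to -0.03) and -0.10 (-0.14 to -0.07). None of the 6 reached 2-fold, where 3.39% of 12260 genes were at least 2-fold higher and 2.25% lower, and the median over all genes was 0.06. The cells themselves overlapped widely: the median stromal cell had a C3 level of 2338 CPM in WT and 2293 in KO, and the upper quartile was 3854 and 4262.

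The summed UMIs were unevenly spread over cells. The tenth of stromal cells with the most Cfb held 41.2% of its UMIs in WT and 54.8% in KO, and for C3 these shares were 29.3% and 36.5%. With equal weight for each cell the ratios of C3, Cfb and C1s1 were 0.15, 0.34 and 0.15. After thinning they were 0.20, 0.66 and -0.05, so that Cfb moved in opposite directions under these settings. Leaving out the barcodes shared with KO SC lowered the C3 ratio to 0.22 and that of C4b to -0.45. The KO IP stromal cells also had more of the mesothelial marker list, 257 against 146 summed CPM, with 20.5 in WT SC and 15.02 in KO SC. Wt1 made up 1068 of the 1083 marker UMIs in KO IP and 881 of 885 in WT IP, and Msln and Lrrn4 were at 0 in the stromal cells of all 4 libraries. Without the 12 KO and 4 WT stromal cells that had a UMI of a mesothelial marker other than Wt1, C3 was at 0.39, Cfb at 0.58 and C1s1 at 0.28. Without the 138 KO and 182 WT cells that had any mesothelial marker UMI, Wt1 included, C3 was at 0.59, Cfb at 0.31 and Serping1 at 0.06.

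**Figure D2:**
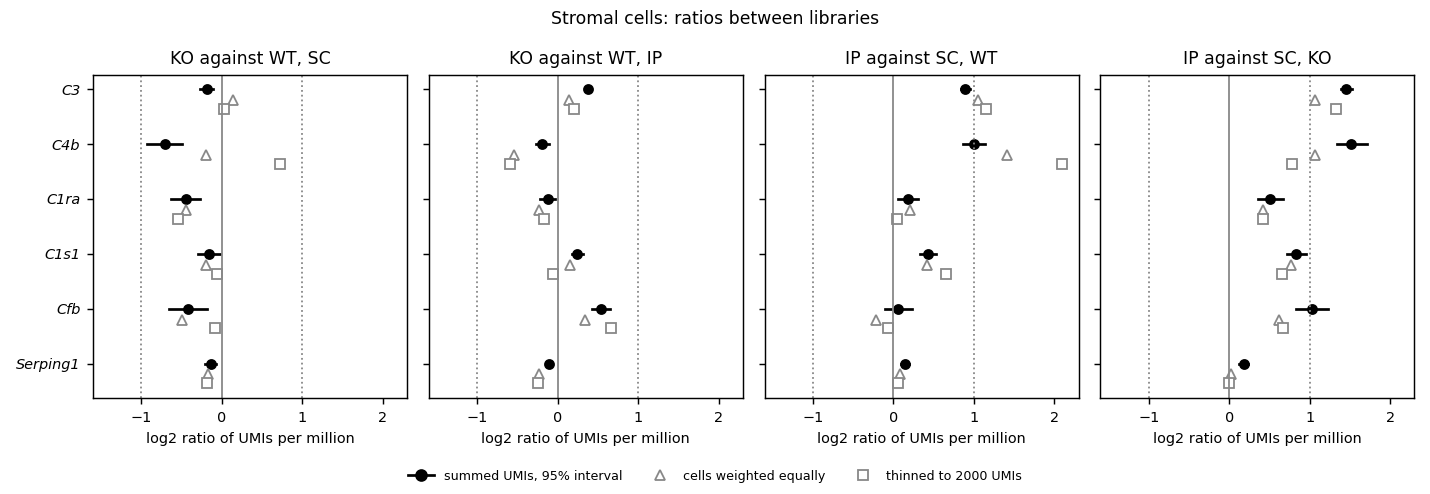
For the 6 stromal members the log2 ratio of CPM is plotted for KO against WT in SC and IP and for IP against SC in WT and KO. Black points are summed UMIs with 95% counting intervals, triangles weigh cells equally, squares use 2000 UMIs per cell, and dotted lines mark 2-fold. C4b moves most between these settings, from -0.71 to 0.73 in SC.

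**Figure D3:**
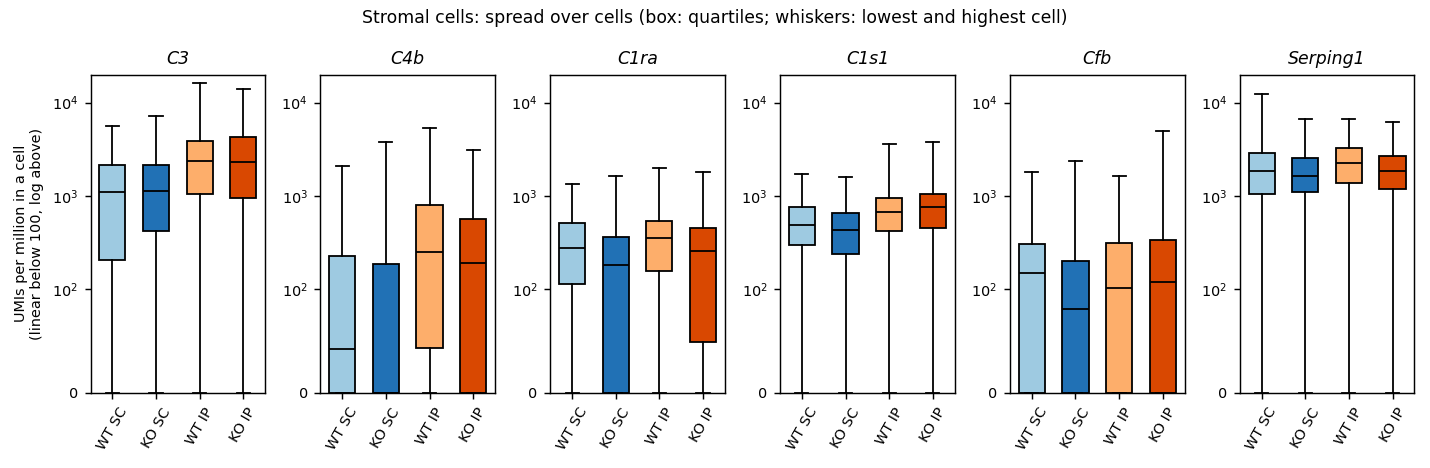
Boxes show the quartiles and whiskers the lowest and highest stromal cell, in CPM of the cell (linear below 100, log above), for 6 members in 4 libraries. The C3 boxes of IP (medians 2338 and 2293) lie above those of SC (1105 and 1139), and the boxes of the genotypes overlap within each depot.

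Stromal cells of fat include early progenitors, which carry Dpp4 and Pi16, and preadipocytes committed to the fat lineage, which carry Icam1 and Pparg. Cells with at least 2 markers of 1 list and fewer than 2 of the other were compared with the cells that had fewer than 2 markers of the first list, and cells with both lists (15, 19, 112 and 104 in WT SC, KO SC, WT IP and KO IP) were left out. The median depth differed between the sets, for example 20841 UMIs in the early progenitor set of WT SC and 3429 in the other cells.

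C3 was higher in the early progenitor set in SC, at 1919 against 567 CPM in WT (log2 ratio 1.76, 1.54 to 1.99) and 1728 against 757 in KO (1.19, 0.98 to 1.41). In WT SC 15.8% of 7257 genes were at least 2-fold higher in that set and 9.6% lower, and in KO SC 13.3% of 6871 were higher and 13.3% lower. C3 was the only member that was 2-fold higher in these sets. In IP, C3 had ratios of -0.58 in WT (-0.68 to -0.49) and 0.36 in KO (0.27 to 0.45). C4b went the other way. It was lower in the early progenitor set of WT IP, at 107 against 752 CPM (-2.79, -3.23 to -2.41), and of KO SC, at 122 against 253 CPM (-1.06, -1.5002 to -0.59). Cfb was lower in WT IP at 90.9 against 263 CPM (-1.52, -2.01 to -1.09). In WT IP 9.53% of 9569 genes were at least 2-fold higher and 10.1% lower. In KO IP no member reached 2-fold, where 5.7% of 7415 genes were higher and 9.47% lower, and C4b stood at 452 against 503 CPM. The KO SC ratio of C3 fell to 0.74 with shared barcodes counted in both libraries, to 0.46 with equal weight for each cell and to 0.64 after thinning. That of C4b was -2.35 after thinning, and its call ended with equal weights at -0.81, without cells with a mesothelial marker UMI at -0.88, and with classes from clusters and median-of-ratios scaling at -0.96 each.

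The committed preadipocyte set mirrored this in WT, where the early progenitor set is part of the cells it was compared with. C4b was at 772 against 182 CPM in WT IP (2.08, 1.81 to 2.37) and Cfb at 274 against 92.4 CPM (1.56, 1.18 to 1.98), 2 members among 7.43% of 9569 genes at least 2-fold higher, with 0 among the 8.49% lower. Neither call held without stromal cells with any mesothelial marker UMI, Wt1 included, where C4b was at 0.89 and Cfb at 0.57. Both held when only cells with a mesothelial marker other than Wt1 were left out. C4b was at 1.19 with equal weight for each cell and 1.47 after thinning, where Cfb was at 0.77. C3 was at 567 against 1880 CPM in WT SC (-1.72, -1.97 to -1.499), 1 member among 15.2% of 7257 genes at least 2-fold lower, with 0 among the 10.4% higher. In KO IP all 6 ratios of summed UMIs were between -0.08 and 0.20, where 6.62% of 7415 genes were at least 2-fold higher and 5% lower. They depended on the weighting: with equal weights C3 was at 0.90 and C4b at 0.71, and after thinning C3 was at 0.78, C1ra at 0.73 and Cfb at -0.65.

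Between the genotypes, the summed UMIs of the early progenitor set of IP gave larger ratios than the stromal cells as a whole. KO exceeded WT by a log2 ratio of 2.06 for C4b (1.62 to 2.55), 1.68 for Cfb (1.17 to 2.23) and 1.03 for C3 (0.92 to 1.14), from 30 and 27 cells. The share of cells with a C4b UMI was no higher, 40.0% in KO and 48.1% in WT, and the 3 KO cells with the most C4b held 58.3% of its UMIs there. For Cfb and C3 the top 3 of the 30 KO cells held 64.2% and 54.6%. The median cell had 1514 CPM of C3 in KO and 1477 in WT, and 0 of C4b in both. For Cfb it had 68.0 CPM in KO and 33.6 in WT. Means over cells were 2586 against 2178 CPM for C3, 231 against 116 for C4b and 197 against 88.0 for Cfb. The share of all genes at 2-fold is not given for this comparison. In the committed set of IP the ratios were -0.57 for C4b, 0.36 for Cfb and 0.22 for C3, from 36 KO and 104 WT cells.

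**Figure D4:**
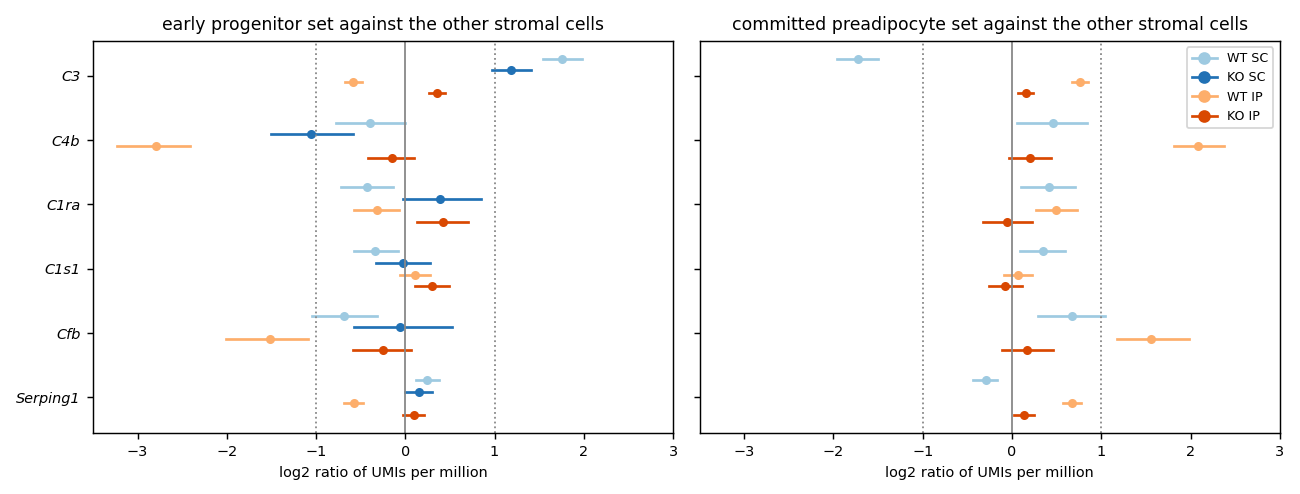
Points give the log2 ratio of CPM in the early progenitor set (left) and the committed preadipocyte set (right) against the other stromal cells, by member and library, with 95% counting intervals. C3 in the early progenitor set lies at 1.76 and 1.19 in SC and at -0.58 in WT IP, the committed set of KO SC, with 15 cells, is not drawn, and C4b in WT IP lies at -2.79 on the left and 2.08 on the right.

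Macrophages could be compared between genotypes in IP only. C1qb was lower in KO, with a log2 ratio of -0.58 (-0.74 to -0.42), while C1qa and C1qc were at 0.34 (0.16 to 0.51) and 0.31 (0.09 to 0.52). C3 was at 0.86 (0.02 to 1.63), from 21 UMIs in KO and 43 in WT, and C4b at 0.29 (-1.25 to 1.502). None of the 5 members compared reached 2-fold, where 7.78% of 7250 genes were at least 2-fold higher and 6.34% lower. With equal weight for each cell C3 reached 1.15, and C1qa reached 0.70 after thinning to 2000 UMIs. When classes were taken from clusters, C1qa and C1qc moved to 0.03 and 0.02 and C1qb to -0.87. The macrophages of KO had more of the dendritic cell marker list, 708 against 347 summed CPM with 6 and 7 of its 7 markers detected, and its part in these ratios was not tested.

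The chains are made in a common complex, so their shares were also read within each library. C1qb made up 53.9% of the 3787 C1q UMIs of WT IP macrophages (52.3 to 55.5) and 38.5% of the 967 of KO IP (35.4 to 41.6). C1qa made up 28.0% and 37.6%, and C1qc 18.1% and 23.9%. A few cells weighed heavily in KO. Its cell with the most C1q held 24.6% of the UMIs with 21.4% of them C1qb, and without it the C1qb share was 44.0%. Without the equivalent cell in WT it was 56.7%. Among cells with at least 10 C1q UMIs the median share was 57.2% over 34 cells of WT and 40.7% over 7 of KO, and the 2 sets of cells overlapped. Among cells with more than 100 C1q UMIs it was 35.0% to 76.8% over 16 WT cells and 21.4% to 40.7% over 4 KO cells. The KO cells with 10 to 100 C1q UMIs had higher C1qb shares than those 4, within the range of the WT cells.

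C1q was not uniform over macrophages. All 3 chains were detected in 34 of 83 cells of WT IP and 8 of 28 of KO IP, and none in 30 and 15. The tenth of cells with the most C1qa held 59.7% of its UMIs in WT IP and 76.1% in KO IP, there 3 cells. After thinning to 2000 UMIs Spearman's rho between chains over cells was 0.71 to 0.80 in WT IP (83 cells) and 0.73 to 0.88 in KO IP (24 cells). These values describe cells of a single library each.

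**Figure D5:**
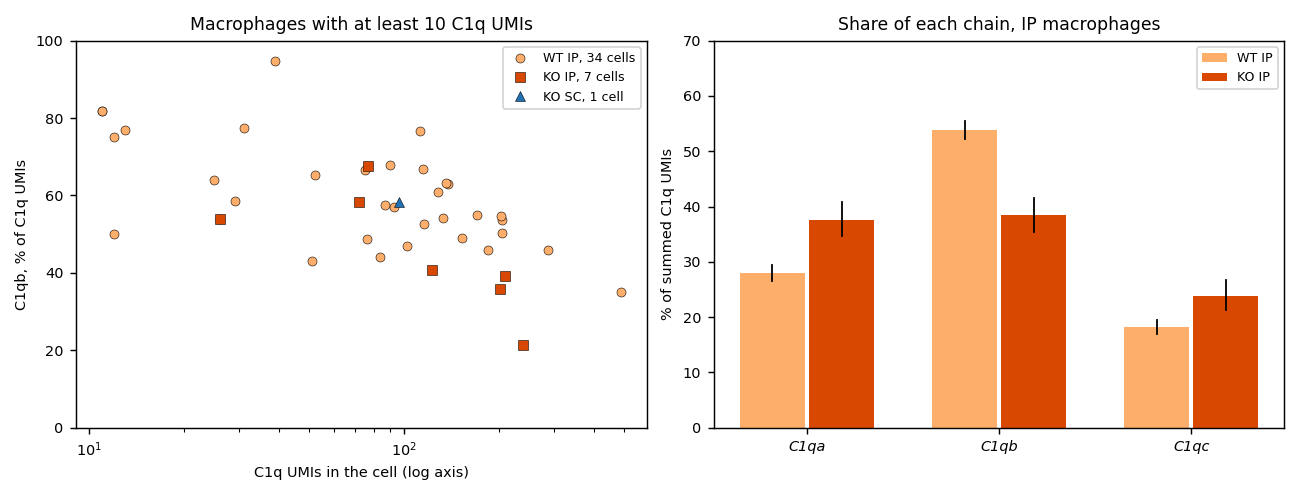
The left panel plots, for each macrophage with at least 10 C1q UMIs, the percentage that is C1qb against the C1q UMIs of the cell (log axis), and the right panel plots the share of each chain in IP macrophages with 95% exact binomial intervals. The 4 KO IP cells with over 100 C1q UMIs lie at 21.4% to 40.7%, and the KO IP cells with 10 to 100 lie above that range. The summed C1qb share is 53.9% in WT IP and 38.5% in KO IP.

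Lipid-associated macrophages carry Trem2, Cd9 and Gpnmb. In WT IP the 33 cells with at least 2 markers of that list, and fewer than 2 of the resident list, were compared with 42 others. C1qa was at 368 against 668 CPM (-0.86, -1.10 to -0.63), C1qc at 253 against 333 (-0.40, -0.71 to -0.09) and C1qb at 984 against 1231 (-0.32, -0.48 to -0.17). C3 was at 22.7 against 48.4 CPM (-1.07, -2.09 to -0.14), from 16 and 26 UMIs. C3 was the 1 member that was at least 2-fold lower, where 4.71% of 6113 genes were, and 0 were higher, where 4.14% were. The C3 call ended with classes from clusters, at -0.07, with equal weights, at -0.80, and with shared barcodes left out, at -0.98. With classes from clusters C1qb and C1qc turned to 0.14 and 0.08. The resident list, with Folr2 and Timd4, marked 7 cells of WT IP and 1 of KO IP, and the lipid-associated set of KO IP held 4 cells, so these were not compared. Outside the lipid-associated set, and without cells carrying both lists, the 21 KO cells held less C1q than the 42 WT cells: C1qa was at 124 against 668 CPM (-2.41, -3.00 to -1.91), C1qb at 198 against 1231 (-2.63, -3.08 to -2.23) and C1qc at 38.7 against 333 (-3.04, -4.19 to -2.19). The other 7 KO cells, 4 of the lipid-associated set and 3 with both lists, thus held most of the C1q UMIs of KO IP macrophages. The 42 WT and 21 KO cells included the resident sets, 7 and 1 cells. Among the 21 KO cells, the cell with 25, 42 and 5 UMIs of C1qa, C1qb and C1qc held most of the C1q UMIs. These ratios thus rest on few KO counts, and their intervals do not cover the spread over cells. Among cells with fewer than 2 resident markers, 24 in KO and 68 in WT, the chains divided. C1qa was at 578 against 365 CPM (0.66, 0.40 to 0.92), C1qc at 326 against 237 (0.46, 0.11 to 0.79). C1qb was at 571 against 907 (-0.66, -0.91 to -0.44). Most of the KO UMIs in this split came from the cells with 81, 82 and 46 and with 82, 72 and 47 UMIs of C1qa, C1qb and C1qc. The intervals cover counting error only and not this spread over cells. Shares over all genes are not given for these 2 splits.

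Of 50 other complement genes, 23 had at least 100 UMIs over the kept cells. The initiators and the terminal component among them were mostly stromal or mesothelial. Colec12, a scavenger receptor of the collectin family, was highest in stromal cells at 130 to 241 CPM, and C7, of the membrane attack complex, at 160 to 288 CPM. C2, the partner of C4, was at 244 CPM in mesothelial cells of KO IP. The fluid-phase regulator Clu was highest there too, at 1992 CPM, and Vtn was highest in stromal cells at 8.76 to 96.2 CPM. Stromal cells were also the highest class for the membrane genes Cd55 (294 to 732 CPM) and Csmd1 (83.4 to 227 CPM). C1rl, Cd59a, Cd59b and Calr were highest in mesothelial cells.

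The receptors were mostly on leukocytes. C3ar1, the receptor for C3a, was highest in macrophages at 102 to 108 CPM, as were Cd93 at 130 to 136 CPM and Cfp, which encodes properdin and stabilises the alternative convertase, at 269 to 312 CPM. C5ar1, the receptor for C5a, was highest in neutrophils at 525 CPM, as were Itgam, Itgb2 and Cd46. Cr2, complement receptor 2, was highest in B cells at 39.4 to 147 CPM, C1qbp in T cells, and Itgax and Cr1l in natural killer cells, where Cr1l stood at 92.8 CPM against 85.4 in stromal cells. Hc, which encodes C5, had 26 UMIs over all kept cells, and the lectin genes Mbl1 and Mbl2 had 0.

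Between depots, 3 of the 16 other genes compared in WT stromal cells were at least 2-fold higher in IP and 3 were lower. Those higher included Vtn, at a log2 ratio of 2.72, and Cd59a, at 1.22 from 27 and 3 UMIs with an interval that included 0 (-0.28 to 3.78), while Cd55 was at -1.32, Clu at -1.13 and C1rl at -1.06. In KO 4 of 14 reached 2-fold, among them Vtn at 1.83, Cd59b at 1.46 and Csmd1 at -1.05. Between genotypes 0 of 13 reached 2-fold in SC stromal cells. In IP stromal cells 4 of 18 did, C4a at 1.41, Cd59a at -1.16, Csmd1 at -1.45 and Vtn at -1.58. C4a and Cd59a rested on few UMIs. C4a had 17 in KO and 9 in WT (0.20 to 2.80), and Cd59a had 8 and 27 (-2.57 to -0.05). Csmd1 had 351 and 1382, and Vtn 135 and 585. In IP macrophages C5ar1 was at -1.66 (-2.30 to -1.13) and C5ar2 at -1.22 (-3.32 to 0.10) in KO, 2 of 13, with 0 higher. The background shares are those given above for each comparison.

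Reads of near-identical copies could be dropped or moved between genes. C4b shared 54.5% of its transcript's 25-base words with C4a, C1ra 60.2% with C1rb and C1s1 42.9% with C1s2. Over the last 500 bases, near where these 3′ libraries read, the shares were 64.5%, 25.6% and 34.03%. C4a had 17 UMIs in KO IP stromal cells, C1rb 9 and C1s2 7, against 2051 of C4b, 1586 of C1ra and 3562 of C1s1, and the levels of these 3 members are uncertain to the extent that such reads were dropped.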

How the data were processed

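The deposited files are unnormalized UMI counts of each gene in each barcode. The submitters' processing notes name Cell Ranger, STAR 2.6 and mm10, and libraries were made with a Chromium 3′ v3 kit. The Cell Ranger version, 7.0.0, was read from the header of the count matrices. The text of the labels speaks of cells and, in the kit protocol, of nuclei. Groups came from the sample labels, with 1 library per group, so no test between groups was possible and no p-value is given. Of the 4927 barcodes, those under 200 genes or above 25% mitochondrial UMIs were dropped. Doublets were called by Scrublet at an expected rate of 5% (0.411% were marked, so the caller may have missed doublets), and 92 shallow copies of barcodes shared between KO SC and WT IP were left out of KO SC. Each cell was given the class of which the largest part of the marker list was detected, with at least 3 markers and no other lineage above 50% of that share. UMIs were summed by class and library and scaled to a class total of 1000000 (CPM). Intervals are 95% exact Poisson for levels, exact Clopper-Pearson for shares and exact conditional binomial for ratios. They cover counting error only, not mice or cells, and PCR or free RNA is not modelled. Ratios were made where both classes had at least 20 cells and the pair at least 20 UMIs, and a gene was called at 2-fold or more. A floor of 3 counts was used for a count of 0. The ratio code was tested on simulated data. Clusters came from Leiden at resolution 1 on 2000 variable genes, 30 principal components and 15 neighbours. The software was Scanpy 1.11.5, leidenalg 0.10.2, igraph 0.11.9, matplotlib 3.10.9, pandas 2.3.3, SciPy 1.17.1 and NumPy 2.4.6 under Python 3.11.15. Of the 32290 features, 32235 matched a GENCODE vM21 gene.

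The members and gene lists were chosen with earlier results of these data known. Named genes were the 9 members, Tert, other complement genes at least 2-fold in a comparison (at most 6 by UMIs) or with at least 100 UMIs by their highest class, and the 5 genes most like C3, C4b and C1qa. Some genes that meet this rule are counted but not reported by name here. Hc, Mbl1 and Mbl2 were named after their values were seen. Also chosen after seeing the data were the class rule (6 settings were compared by the cell numbers they gave, and red-cell markers were dropped because haemoglobin RNA left many cells ambiguous), the treatment of shared barcodes, the subset rule of at least 2 own and fewer than 2 other markers, the minimum of 10 and the limit of 100 C1q UMIs per cell, the comparison with mesothelial cells, the values by cluster, the comparison of genotypes within subsets, the motif list, and 4 alternatives: shared barcodes counted in both libraries or left out of both, and stromal cells with any mesothelial marker UMI, or with one other than Wt1, left out.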

Additional observations from a re-analysis of the deposited data

Results flagged for a closer look

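The effect of genotype in stromal cells had opposite directions in the depots for 3 members, with both counting intervals leaving out 0. The log2 ratio of KO to WT was -0.18 in SC and 0.38 in IP for C3, -0.16 and 0.25 for C1s1, and -0.42 and 0.54 for Cfb. In SC the C3 ratio turned positive with equal weight for each cell, and in IP the C1s1 ratio turned negative after thinning.

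The early progenitor set differed in direction between libraries as well. For C3 its log2 ratio to the other stromal cells was 1.76 in WT SC. In IP it was -0.58 for WT and 0.36 for KO, and the KO value turned to -0.013 with classes from clusters. For Serping1 it was 0.25 in WT SC and -0.58 in WT IP, and for C1ra -0.31 in WT IP and 0.42 in KO IP. The committed preadipocyte set gave -1.72 in WT SC and 0.76 in WT IP for C3, and -0.30 and 0.67 for Serping1. Each set is among the cells that the other was compared with, so these are not separate observations.

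With 1 library per group none of these differences between libraries was tested, and their cause was not tested.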

How the results depend on the processing

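Of 903 recomputed log2 ratios 762 stayed within the counting interval of the reported value, 128 left it, and 13 whose interval had left out 0 changed sign. Of 693 levels, 586 stayed and 107 moved, and of 400 counts 343 stayed within 1.5 times and 57 moved. Depth and the number of cells limit the small classes most. No paired analysis was possible because each group had 1 library and no replicate number, and no library could be left out for the same reason.

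Reversed ratios were as follows. With equal weight for each cell, C3 KO against WT in SC went to 0.14, C1ra in the early progenitor set of WT SC to 0.0028 and Serping1 in that of KO SC to -0.16. After thinning to 2000 UMIs, KO against WT went to 0.028 for C3 and 0.73 for C4b in SC and to -0.050 for C1s1 in IP, Serping1 IP against SC in KO to -0.0086, and Serping1 to -0.053 in the early progenitor set of KO SC and -0.082 in the committed set of KO IP. With classes from clusters, C3 in the early progenitor set of KO IP went to -0.013, and C1qb and C1qc in the lipid-associated set to 0.14 and 0.085. Without stromal cells with any mesothelial marker UMI, Serping1 KO against WT in IP went to 0.062.

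Counts of members at 2-fold or more moved as follows. IP against SC in WT went from 0 higher to 1 with classes from clusters, with 1 more marker per cell and without cells with a mesothelial marker other than Wt1, to 2 with equal weights, after thinning and with shared barcodes left out, and to 3 with no minimum of UMIs. IP against SC in KO went from 3 to 1 after thinning. With no minimum, KO against WT gave 2 lower in IP stromal cells and 1 higher and 1 lower in macrophages, and equal weights gave 1 higher in macrophages. With classes from clusters 0 rather than 3 members reached 100 CPM in macrophages of every library with the class. Early progenitor pairs of member and library went from 2 higher to 1 with equal weights, after thinning and with shared barcodes counted in both, and from 3 lower to 0 without cells with any mesothelial marker. Committed pairs went from 2 higher to 1 after thinning and 0 without cells with any mesothelial marker, and from 1 lower to 0 at 500 genes, with classes from clusters, after thinning and under both mesothelial settings, and to 2 with shared barcodes counted in both. The lipid-associated set went from 1 lower to 0 with classes from clusters, equal weights and shared barcodes left out.

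Counts of other complement genes moved as follows. KO against WT in SC went from 0 higher to 1 with equal weights, 2 after thinning and 8 with no minimum, and from 0 lower to 2 with classes from clusters and 7 with no minimum. KO against WT in IP went from 1 higher to 2 without doublet removal and with 1 more marker, to 0 with equal weights, after thinning, at 100 UMIs and without cells with any mesothelial marker, and to 9 with no minimum, and from 3 lower to 8 with no minimum and 1 without those cells. IP against SC in WT went from 3 higher to 5 with equal weights and 10 with no minimum, and from 3 lower to 5 with no minimum. IP against SC in KO went from 3 higher to 12 with no minimum, and from 1 lower to 0 with 1 more marker, 2 with median-of-ratios scaling, after thinning and without cells with any mesothelial marker, 4 with equal weights and 7 with no minimum. In macrophages 0 higher became 7 with no minimum, and 2 lower became 1 with classes from clusters, equal weights, thinning and 100 UMIs. Where a setting leaves fewer than 20 cells or UMIs, or drops that minimum, the number of values counted changes by construction. For the other settings the cause was not tested.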
